A study of Mus musculus with 4 samples.

Results

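H19, Meg3, Rian, Mirg, Cdkn1c, Grb10, Dlk1, Peg3, Plagl1 and Mest are imprinted genes, taken here as a named set of 10 genes among the 56748 gene IDs counted. Each gene was found by matching its Ensembl ID to its mouse symbol, and all 10 were present. H19, Meg3, Rian, Mirg, Cdkn1c and Grb10 are classed as maternally expressed (6 genes), and Dlk1, Peg3, Plagl1 and Mest as paternally expressed (4 genes). RNA was sequenced in bulk from cultured cells of the mouse prostate, labelled as fibroblasts, with 1 library for each of 4 conditions. The conditions were BuOE with radiation, PBS (phosphate-buffered saline) with radiation, BuOE alone and PBS alone. The series title concerns a radioprotector and radiation-induced fibrosis, and BuOE is an abbreviation found in the chemical name of that agent, a redox-active manganese porphyrin.

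All animals were male mice aged 8 to 10 weeks, given as CB57BL/6 in the sample labels and as C57BL/6 in the protocol. Those of both irradiated groups were exposed at the pelvis under shielding to 37.5 Gy in all, split into 7.5 Gy fractions during 5 days at 1.2 Gy/min, and those of the other groups were not exposed. Minced tissue was digested with collagenase and the fragments were grown in medium with serum, so every library comes from cells that had been in culture. The dose and timing of BuOE, whether it was given to animals or to cultures, and how many animals stand behind a library are not given in the sources used here. Each comparison of a library pair below therefore has no replicate check.

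Genomic imprinting is the expression of a gene mainly from the copy inherited from 1 parent, set by DNA methylation laid down in the germ line. Many imprinted genes act on growth before and after birth, and in the mouse a number of them are expressed together in embryonic tissues and decline as the animal matures. Paternally expressed members often promote growth and maternally expressed members often restrain it, although single genes depart from this. Meg3, Rian and Mirg are noncoding transcripts of the Dlk1-Dio3 domain on chromosome 12, which also encodes Dlk1 from the other parental copy. The deposited counts do not separate the parental copies, so every value below is the sum of both.

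Promoter windows are shown for Meg3 and Peg3 because they alone among the members' windows held the cyclic AMP response element palindrome. The windows run from 250 bases before to 50 bases after an annotated start (RefSeq, build GRCm38.p6) and are printed 5′ to 3′. The palindrome TGACGTCA is in capitals in both, and GGGGCCCC is also in capitals in Peg3. The Meg3 window lies at chr12:109540746-109541045 on the plus strand, and the Peg3 window at chr7:6730370-6730669 on the minus strand.

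Meg3: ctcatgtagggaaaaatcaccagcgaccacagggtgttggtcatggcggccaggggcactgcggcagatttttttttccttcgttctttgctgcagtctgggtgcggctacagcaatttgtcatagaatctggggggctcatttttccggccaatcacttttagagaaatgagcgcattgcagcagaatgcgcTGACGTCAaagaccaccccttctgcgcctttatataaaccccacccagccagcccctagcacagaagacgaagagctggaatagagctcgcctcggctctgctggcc

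Peg3: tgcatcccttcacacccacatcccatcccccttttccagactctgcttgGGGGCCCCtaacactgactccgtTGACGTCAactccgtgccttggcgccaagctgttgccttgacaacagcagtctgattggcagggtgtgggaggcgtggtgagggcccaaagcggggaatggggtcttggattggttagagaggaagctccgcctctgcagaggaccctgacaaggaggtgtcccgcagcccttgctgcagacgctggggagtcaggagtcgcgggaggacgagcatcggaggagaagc

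Of the 10 genes, 8 matched the promoter table, which gave 12 windows. TGACGTCA, which is its own reverse complement, occurred in 2 of these 12 windows and in 1.79% of all 32851 windows in the table. GGGGCCCC, also its own reverse complement, occurred in 1 of the 12 and in 1.08% of all windows. The GC box GGGCGG, searched on both strands, occurred in 5 of the 12 and in 35.7% of all windows, and TATAAA on either strand in 1 of the 12, that of Meg3, and in 13.6% of all. These matches describe the letters of the windows and were not tied to any measurement.

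The deposited counts summed to between 25.0 M and 35.9 M per library. Levels are given as CPM, counts per 1 M reads, after TMM scaling, which corrects for differences in library composition. A gene was compared when its mean was at least 1 CPM over the 4 libraries, which 14365 genes and all 10 members met. A count of 3, used as the limit for a gene without reads, equalled 0.0842 to 0.123 CPM. Fibroblast markers were abundant in every library, and their 7 genes summed to 5586, 8216, 5832 and 7134 CPM in the irradiated BuOE, irradiated PBS, BuOE and PBS libraries. Markers of epithelium were also present, with sums over 6 genes of 3744, 2621, 3793 and 3039 CPM in that order, so the cultures were not of 1 cell type. The share of counts on mitochondrial genes was 2.65% in the irradiated BuOE library, against 0.413 to 0.883% in the other 3 libraries. In bulk RNA, fewer cells of a type and less RNA per cell cannot be told apart.

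Levels of the members differed widely when set per kilobase of merged exons. Grb10, an adaptor that binds the insulin and IGF receptors and dampens their signalling, was the most abundant, with a mean of 20.6 CPM per kb. H19 followed at 9.15 CPM per kb, and then Mest at 3.62, Rian at 3.36 and Peg3 at 3.08 CPM per kb. Cdkn1c, Dlk1, Meg3 and Plagl1 had means of 2.12, 2.01, 1.87 and 1.61 CPM per kb, and Mirg was the least abundant at 0.894 CPM per kb. Within single libraries, Grb10 stood above H19, H19 above Mest and Plagl1 above Mirg in 4 of 4 libraries. The other neighbours in this order changed places in at least 1 library, and across conditions the ranges of all neighbours overlapped. Summed over the members, the level was 274.7 CPM in the irradiated BuOE library, 538.9 CPM in the irradiated PBS library, 262.4 CPM in the BuOE library and 503.1 CPM in the PBS library.

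**Figure D1:**
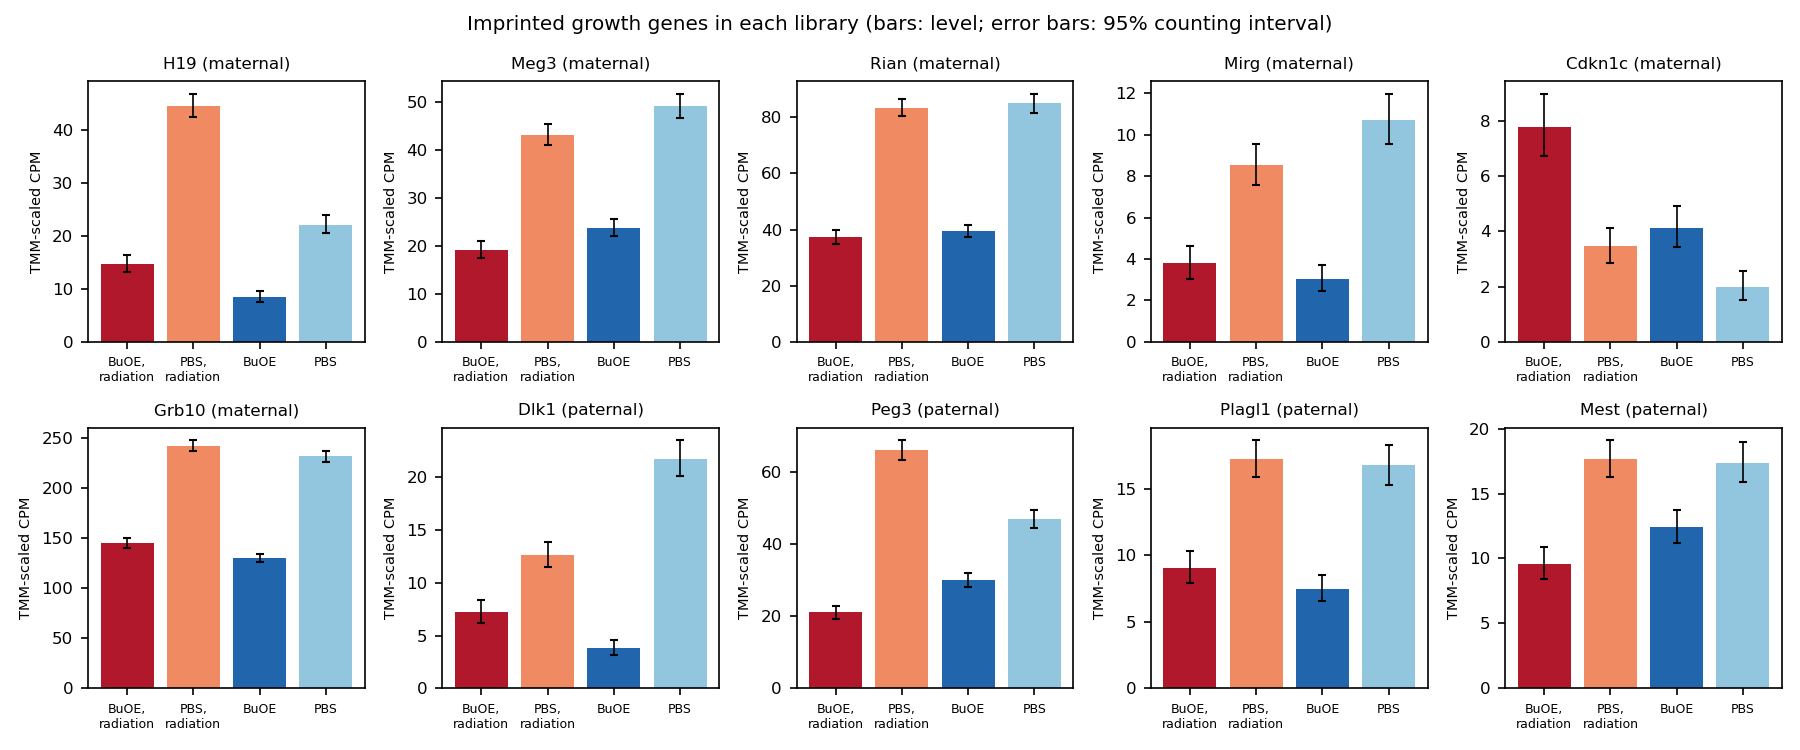
Level of each member in each library (vertical axis, TMM-scaled CPM from 0; bars, 1 library each; error bars, 95% counting interval). For 9 of the 10 genes both BuOE bars stand below both PBS bars, and for Cdkn1c both BuOE bars stand above, with levels of 7.78 and 4.12 CPM against 3.45 and 1.98 CPM.

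The comparison of BuOE with PBS, made once among irradiated and once among unirradiated libraries, showed lower levels of most of these genes with BuOE. H19, Meg3, Rian and Mirg, which are the noncoding members, were at least 2-fold lower in both library pairs, although Meg3 missed 2-fold without radiation when scaled by library size alone (-0.952). Grb10, Dlk1, Peg3, Plagl1 and Mest were lower in both pairs by differing amounts. Cdkn1c, a cyclin-dependent kinase inhibitor, was at least 2-fold higher in both. These statements describe pairs of single libraries, and each interval after a log2 ratio is a 95% interval for counting error only.

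H19, a noncoding RNA and the host of a microRNA, had 14.7 CPM in the irradiated BuOE library, 44.7 CPM in the irradiated PBS library, 8.51 CPM in the BuOE library and 22.2 CPM in the PBS library. Both BuOE libraries lay below both PBS libraries, and the highest level was that of the irradiated PBS library. The log2 ratio of BuOE to PBS was -1.60 (-1.77 to -1.43) after radiation and -1.37 (-1.60 to -1.17) without it, or 3.02-fold and 2.59-fold lower. These levels rest on 358, 1591, 258 and 651 reads in the irradiated BuOE, irradiated PBS, BuOE and PBS libraries.

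Meg3, a long noncoding RNA, had 19.2 CPM in the irradiated BuOE library, 43.1 CPM in the irradiated PBS library, 23.8 CPM in the BuOE library and 49.0 CPM in the PBS library. Rian, which hosts small nucleolar RNAs, had 37.3, 83.5, 39.4 and 84.9 CPM in the same order. Mirg, which hosts microRNAs, had 3.79, 8.53, 3.03 and 10.7 CPM in the same order. In all 3 genes of the domain both BuOE libraries were low and both PBS libraries high, with no overlap. After radiation, the log2 ratios of BuOE to PBS were close to each other, at -1.16 (-1.32 to -1.02) for Meg3, -1.16 (-1.27 to -1.05) for Rian and -1.16 (-1.52 to -0.83) for Mirg. Without radiation they were -1.04 (-1.18 to -0.91) for Meg3, -1.11 (-1.21 to -1.01) for Rian and -1.80 (-2.17 to -1.48) for Mirg, whose interval did not reach those of the other 2 genes.

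Dlk1 encodes a membrane protein related to Notch ligands that restrains adipocyte formation in mouse cells. Its level was 7.24 CPM in the irradiated BuOE library, 12.7 CPM in the irradiated PBS library, 3.79 CPM in the BuOE library and 21.7 CPM in the PBS library. Both BuOE libraries were below both PBS libraries, and the PBS library stood alone at the top. The log2 ratio of BuOE to PBS was -0.80 (-1.07 to -0.55) after radiation and -2.50 (-2.82 to -2.23) without it, where it was 5.65-fold lower. Adipocyte markers moved beside it in the unirradiated pair but not in the irradiated pair. Their 6 genes summed to 205.2, 185.2, 169.7 and 562.0 CPM in the irradiated BuOE, irradiated PBS, BuOE and PBS libraries, and Adipoq was at 0 reads in the BuOE library. After radiation their median log2 ratio of BuOE to PBS was 0.86, with 5 above 0 (43.8% of all genes). Without radiation it was -3.75, with 6 below 0 (51.2% of all genes). The part of the adipocyte markers in the result was not tested.

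Peg3, a zinc finger protein that in mice affects growth, had 21.1 CPM in the irradiated BuOE library, 66.1 CPM in the irradiated PBS library, 29.9 CPM in the BuOE library and 46.9 CPM in the PBS library. The irradiated PBS library was the highest and the irradiated BuOE library the lowest. Its log2 ratio of BuOE to PBS was -1.65 (-1.79 to -1.51) after radiation, the lowest of the members in that pair, and -0.65 (-0.77 to -0.53) without radiation.

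Plagl1, a zinc finger transcription factor reported in mice to regulate other imprinted genes, had 9.05 CPM in the irradiated BuOE library, 17.2 CPM in the irradiated PBS library, 7.49 CPM in the BuOE library and 16.8 CPM in the PBS library. Mest, a hydrolase-like protein, had 9.59, 17.7, 12.4 and 17.4 CPM in the same order. In both genes the 2 PBS libraries were nearly level and both BuOE libraries were lower. The log2 ratio of BuOE to PBS was -0.92 (-1.16 to -0.70) after radiation and -1.16 (-1.40 to -0.93) without it for Plagl1. For Mest it was -0.88 (-1.10 to -0.66) after radiation and -0.48 (-0.68 to -0.29) without it.

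Grb10 had 144.9 CPM in the irradiated BuOE library, 242.1 CPM in the irradiated PBS library, 129.9 CPM in the BuOE library and 231.5 CPM in the PBS library. The groups did not overlap, and the difference stayed under 2-fold in both pairs. The log2 ratio of BuOE to PBS was -0.74 (-0.80 to -0.68) after radiation and -0.83 (-0.89 to -0.78) without it.

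Cdkn1c, which encodes the cell cycle inhibitor p57, was the exception in direction. It had 7.78 CPM in the irradiated BuOE library, 3.45 CPM in the irradiated PBS library, 4.12 CPM in the BuOE library and 1.98 CPM in the PBS library. Both BuOE libraries lay above both PBS libraries, by a log2 ratio of 1.16 (0.84 to 1.51) after radiation and 1.04 (0.60 to 1.54) without it. It was the member with the lowest counts in the PBS library, at 58 reads, against 125 reads in the BuOE library.

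**Figure D2:**
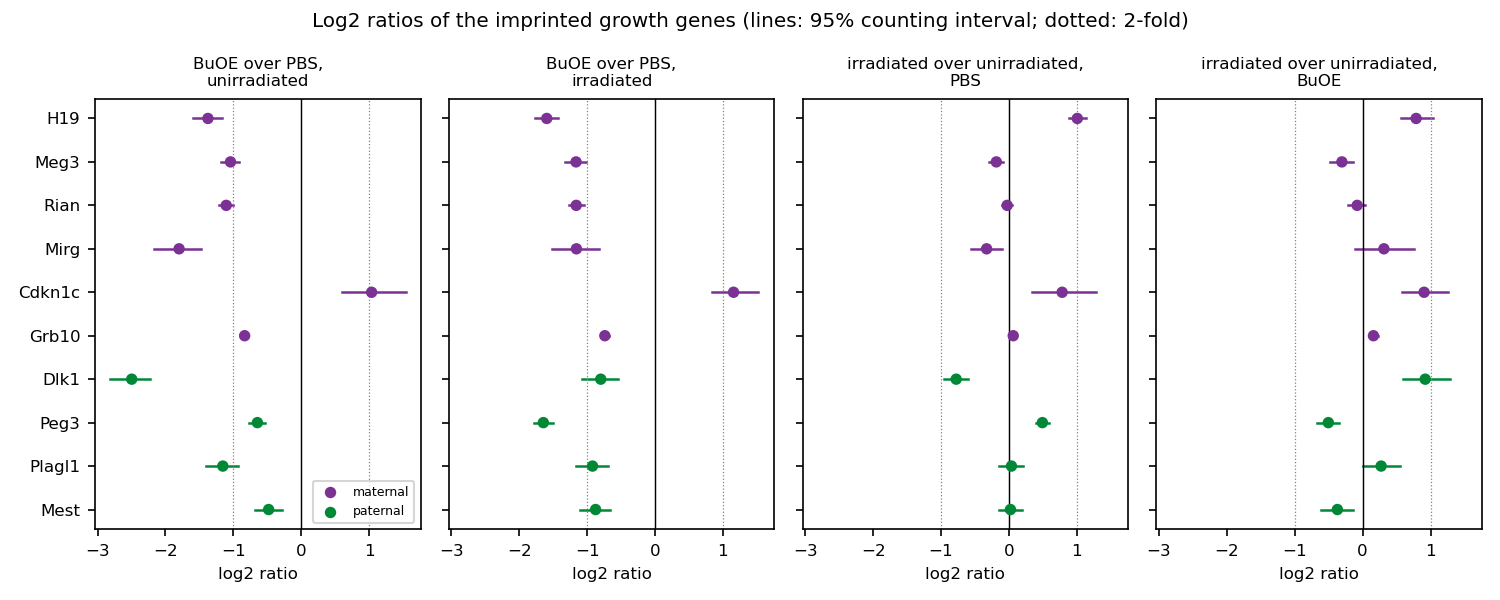
Log2 ratio of each member (horizontal axis) in the 4 library pairs, with lines for the 95% counting interval, purple for maternally and green for paternally expressed genes and dotted lines at 2-fold. In both BuOE panels 9 members lie left of 0 and Cdkn1c lies right of it. In the panels for radiation members lie on both sides of 0, and only H19 with PBS reaches 2-fold.

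In counts, the irradiated BuOE library had 5 of the 10 members at least 2-fold below the irradiated PBS library and 1 at least 2-fold above it, against 5.92% and 3.81% of all genes compared. With upper-quartile scaling the shares of all genes turned to 4.67% lower and 5.34% higher. In the BuOE library against the PBS library, 6 members were at least 2-fold lower and 1 was higher, against 4.23% and 8.72% of all genes. In both pairs 4 members were at least 2-fold lower, against 2.20% of all genes, and 1 member was at least 2-fold higher, against 1.57%. Of the 4 lower members, Meg3, Rian and Mirg lie in the Dlk1-Dio3 domain, so members cannot be taken as independent of each other. Both BuOE libraries lay below both PBS libraries for 9 of the 10 members, against 29.8% of all genes, and above them for 1 member, against 22.3%. The median log2 ratio of the members was -1.04 after radiation, where that of all genes was -0.07, and -1.07 without radiation, where that of all genes was -0.01.

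Among maternally expressed members, 5 of 6 had a ratio below 0 in each BuOE pair, and among paternally expressed members 4 of 4 did. Ratios below 0 were found for 56.2% of all genes after radiation and for 51.2% without it, and ratios above 0 for 43.8% and 48.8%. In both pairs at once, 9 members were below 0 against 37.4% of all genes, and 1 was above 0 against 30.0%. The median log2 ratio of the maternally expressed members was -1.16 after radiation and -1.07 without it. That of the paternally expressed members was -0.90 in each pair. Apart from Cdkn1c, genes of both parental classes lay on the same side in these libraries, and no test was made between the sets.

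An additive model of BuOE and radiation over the 4 libraries, added after the data were seen, leaves 1 residual degree of freedom. It takes the BuOE change as equal with and without radiation. Its residual is the departure from that equality, not the spread between replicate cultures. The BuOE ratios of Dlk1 (-0.80 and -2.50 after and without radiation) and Peg3 (-1.65 and -0.65) were unequal. In edgeR's quasi-likelihood test with Benjamini-Hochberg adjustment, no member and no other gene passed an adjusted p of 0.05 for BuOE (0% of genes), and the members' adjusted p ran between 0.0925 and 0.201. At an unadjusted p under 0.05 were all 10 members, against 20.5% of all genes, and DESeq2 called 866 genes (6.03%). In DESeq2, H19, Meg3, Rian, Grb10, Dlk1 and Peg3 were lower with BuOE at an adjusted p under 0.05, 6 of the 10 members against 2.99% of all genes. The fitted log2 change in edgeR was -1.49 for H19, -1.10 for Meg3, -1.13 for Rian and 1.12 for Cdkn1c, with adjusted p of 0.0925, 0.0963, 0.0925 and 0.179.

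Ratios of reads between genes of the same library do not depend on scaling. Rian had 1.94 reads per Meg3 read in the irradiated BuOE library (1.73 to 2.17), 1.93 in the irradiated PBS library (1.82 to 2.06), 1.66 in the BuOE library (1.51 to 1.82) and 1.73 in the PBS library (1.62 to 1.85). The intervals overlapped within each BuOE pair. Mirg had 0.197, 0.198, 0.128 and 0.219 reads per Meg3 read in the same order, and the interval of the BuOE library (0.102 to 0.159) stood clear of that of the PBS library (0.193 to 0.247). Dlk1 had 0.377, 0.293, 0.160 and 0.443 reads per Meg3 read, again lowest in the BuOE library (0.130 to 0.194).

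**Figure D3:**
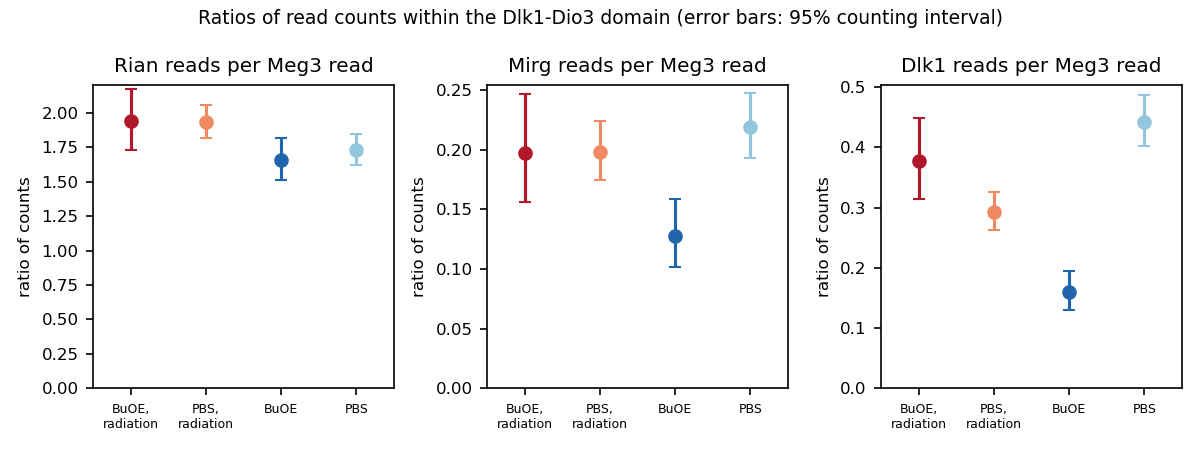
Reads of Rian, Mirg and Dlk1 per read of Meg3 in each library (vertical axis, ratio of counts from 0; error bars, 95% counting interval). Rian stays between 1.66 and 1.94, while Mirg and Dlk1 are lowest in the BuOE library.

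H19 and its neighbour Igf2, a growth factor gene expressed from the paternal copy, were measured at unequal depth. Igf2 had 19 reads in the irradiated BuOE library, 42 in the irradiated PBS library, 20 in the BuOE library and 22 in the PBS library, which left it below the mean of 1 CPM. H19 had 18.8 (11.9 to 31.7), 37.9 (27.9 to 52.8), 12.9 (8.18 to 21.5) and 29.6 (19.4 to 47.5) reads per Igf2 read in that order. This ratio was lower with BuOE than with PBS both after and without radiation, and the intervals within each BuOE pair overlapped only in part. Overlap of separate intervals does not show that the ratios were equal, and their difference was not tested. The 20 microRNA genes listed for these domains held 14, 46, 15 and 61 reads in the same order, none reached 1 CPM, and Mir675 within H19 had no read. Reads of such nested genes may have been given to the host gene or left out under the counting settings, which are not given, so no limit is drawn from a 0.

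The comparison of irradiated with unirradiated libraries asks what exposure of the animal left in cultured cells. It gave smaller differences for most members than did BuOE, and the values of the 2 arms are set side by side. H19 was higher after radiation in both arms, with a log2 ratio of 0.79 (0.56 to 1.03) between the BuOE libraries and 1.01 (0.88 to 1.14) between the PBS libraries. Cdkn1c was also higher in both, at 0.90 (0.58 to 1.25) and 0.79 (0.34 to 1.28) in the same order. Both genes were therefore highest in an irradiated library, H19 with PBS and Cdkn1c with BuOE.

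H19 was the 1 member that reached 2-fold in the PBS arm, where 5.62% of all genes were at least 2-fold higher. DESeq2 or upper-quartile factors put H19 just under 2-fold there, so that no member then passed. No member was at least 2-fold lower in that arm, against 1.02% of all genes. In the BuOE arm no member was 2-fold higher or lower, against 2.27% and 4.94% of all genes. With upper-quartile factors 2 members, Dlk1 (1.037) and Cdkn1c (1.02), were 2-fold higher and none lower, against 3.25% and 4.12%. With library size alone no member was 2-fold higher or lower, against 1.61% and 5.95%. The median log2 ratio of the members was 0.22 in the BuOE arm and 0.03 in the PBS arm, beside -0.03 and 0.00 for all genes. In each arm 6 members had a ratio above 0 and 4 below it, beside 46.2% and 53.8% of all genes in the BuOE arm and 50.4% and 49.6% in the PBS arm. Of the maternally expressed members 2 of 6 were below 0 in the BuOE arm and 3 of 6 in the PBS arm, and of the paternally expressed members 2 of 4 and 1 of 4.

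Rian, Grb10, Plagl1 and Mest differed little between the PBS libraries, with log2 ratios of irradiated to unirradiated of -0.02 (-0.10 to 0.05), 0.06 (0.02 to 0.11), 0.04 (-0.14 to 0.21) and 0.02 (-0.15 to 0.19). Between the BuOE libraries the ratios of the same genes were -0.08 (-0.21 to 0.04), 0.16 (0.09 to 0.22), 0.27 (0.00 to 0.55) and -0.37 (-0.62 to -0.14). Meg3 was slightly lower after radiation in both arms, at -0.31 (-0.48 to -0.14) with BuOE and -0.18 (-0.29 to -0.08) with PBS. Mirg had 0.31 (-0.11 to 0.75) with BuOE and -0.33 (-0.56 to -0.10) with PBS. The sign of Rian in the BuOE arm and that of Mest in the PBS arm changed with the scaling.

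Dlk1 and Peg3 took opposite directions in the 2 arms, with counting intervals beyond 0 in each arm, which held for 2 of 10 members and for 15.7% of all genes. Dlk1 had a log2 ratio of irradiated to unirradiated of 0.92 (0.59 to 1.29) with BuOE and -0.78 (-0.96 to -0.60) with PBS, a difference of 1.70 (1.32 to 2.08). Peg3 had -0.51 (-0.67 to -0.35) with BuOE and 0.49 (0.40 to 0.59) with PBS, a difference of -1.0 (-1.18 to -0.82). Dlk1 was the 1 member whose difference between arms reached 2-fold, against 11.5% of all genes, and Peg3 fell just short. The difference between arms has no test with 1 library per condition, and these arms share no library.

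For the radiation term of the additive model, edgeR called no member and no other gene (0% of genes), with adjusted p between 0.664 and 0.9996 for the members. H19 and Cdkn1c were the 2 members at an unadjusted p under 0.05, against 7.47% of all genes. DESeq2 called 110 genes (0.766%) and no member.

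Of 36 other imprinted genes listed, 27 reached a mean of 1 CPM, and they were split in direction, with 17 below 0 for BuOE after radiation and 13 without it. Their median log2 ratio of BuOE to PBS was -0.17 after radiation and 0.09 without it. After radiation 5 of the 27 were at least 2-fold lower and 3 higher, against 5.92% and 3.81% of all genes. Without radiation 4 were lower and 5 higher, against 4.23% and 8.72% of all genes. In both pairs 2 were lower, against 2.20% of all genes. They were the amino acid transporter gene Slc38a4 (-1.44 and -2.0 after and without radiation) and Peg12 (-1.21 and -1.43). The guanine exchange factor gene Rasgrf1 was higher in both (1.31 and 1.24), against 1.57% of all genes. Close to these lay Peg10, a gene derived from a retrotransposon (-0.96 and -1.20), and Dio3, which encodes a thyroid hormone-inactivating enzyme and closes the domain of Meg3 (-0.99 and -1.32).

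Some other imprinted genes differed between the pairs. Snrpn, Nnat and Nap1l5, which are strongly expressed in neurons, had log2 ratios of BuOE to PBS of -0.44, -0.43 and -1.03 after radiation and 1.4, 1.28 and 1.77 without it. Neuron markers summed to 94.4 CPM in the irradiated BuOE library, 268.7 CPM in the irradiated PBS library, 920.1 CPM in the BuOE library and 121.8 CPM in the PBS library, and their part in these ratios was not tested. Near 0 were Igf2r, the receptor that clears IGF2 (0.13 and -0.16 after and without radiation), and the ubiquitin ligase gene Ube3a (-0.17 and -0.02). Ndn, a gene of postmitotic neurons, lay below 0 in both pairs (-0.67 and -0.40). Kcnq1 (0.55 and 1.65), Airn (1.26 and 0.27) and Zrsr1 (1.16 and 0.92) overlap other genes on the opposite strand, so their reads cannot be assigned without the strand setting of the counting.

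Of 17 genes listed that lie beside the members on the chromosome, 16 were compared. Their median log2 ratio of BuOE to PBS was -0.18 after radiation and -0.03 without it, beside -0.07 and -0.01 for all genes. Single genes went either way, and Phactr2 (-0.27 and 0.64 after and without radiation) and Copg2 (0.26 and 0.48) lay farther from 0 without radiation. After radiation 2 of the 16, Ddc and Cep41, were at least 2-fold lower with BuOE, against 5.92% of all genes. None of the 16 was at least 2-fold lower in both pairs, against 2.20% of all genes. Cep41, near Mest, had -1.01 and -0.48 after and without radiation, and Begain, near Dlk1, had -0.99 and 0.04; Lsp1 and Tnnt3, near H19, had -0.88 and -0.86 after radiation. Dync1h1, the dynein heavy chain gene beyond the domain of Meg3, had -0.01 and -0.03 after and without radiation, and Nap1l4, near Cdkn1c, had 0.14 and -0.16. Ddc, which makes amine transmitters and lies beside Grb10, was the farthest from 0 at -3.89 and 2.30, with 0.247, 4.58, 2.44 and 0.443 CPM in the irradiated BuOE, irradiated PBS, BuOE and PBS libraries.

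**Figure D4:**
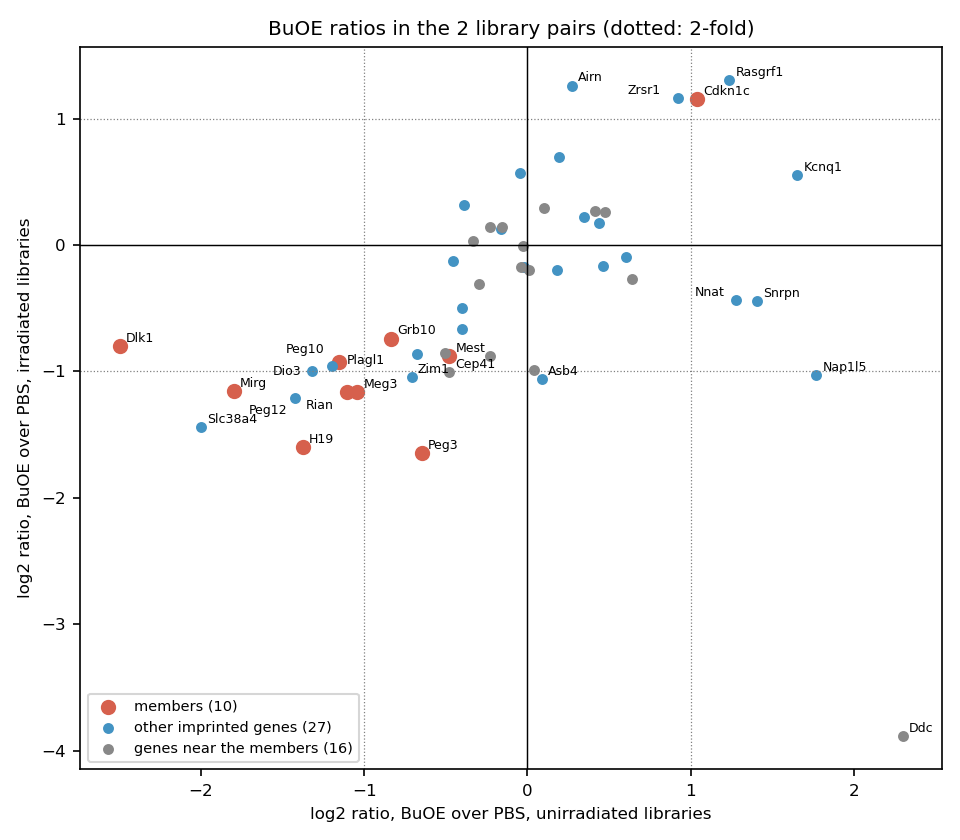
Log2 ratio of BuOE to PBS among unirradiated libraries (horizontal axis) and irradiated libraries (vertical axis) for the 10 members (red), 27 other imprinted genes (blue) and 16 neighbouring genes (grey), with dotted lines at 2-fold. The 9 lower members lie in the lower left part of the plot, while the other imprinted and neighbouring genes spread around 0.

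Pathways in which members act showed mixed values. Of all genes, 5.92% were at least 2-fold lower with BuOE and 3.81% higher after radiation, and 4.23% and 8.72% without it. In the IGF and insulin list, 2 of 11 genes were at least 2-fold lower with BuOE after radiation and none higher, and 2 were lower and 2 higher without radiation. Igfbp5, a secreted IGF-binding protein, had a log2 ratio of BuOE to PBS of -1.08 after radiation and 1.72 without it, and the RNA-binding protein gene Igf2bp1 had -1.15 and -1.49. In the Notch list, 1 of 10 genes was at least 2-fold lower after radiation (Heyl, a Notch target, at -1.67), and 2 were higher without it, of which the ligand gene Dll4 led at 1.81.

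Among 13 genes of DNA methylation and imprint maintenance, 1 was at least 2-fold lower after radiation and 2 without it, against 5.92% and 4.23% of all genes. Uhrf1, which brings the maintenance methyltransferase to replicated DNA, had -1.53 in each pair. Zfp57, a zinc finger protein that protects imprints in mouse embryos and which is named after its value was seen, had -0.65 and -1.25, and Dnmt1, the maintenance methyltransferase, had -0.60 and -0.93. Of 6 other cyclin-dependent kinase inhibitors, 4 were below 0 in both pairs and 2 above 0, against 37.4% and 30.0% of all genes. The 2 in the direction of Cdkn1c were Cdkn1a (p21), at 1.28 after radiation and 0.82 without it, and Cdkn1b (p27), at 0.91 and 0.63. The lowest was Cdkn2a at -1.15 and -2.02, on 20 and 15 reads in the irradiated BuOE and BuOE libraries.

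Genes of dividing cells moved with the members. At least 2-fold lower with BuOE were 6 of 8 proliferation markers after radiation and 7 without it, against 5.92% and 4.23% of all genes. All 8 had a ratio of BuOE to PBS below 0 in both pairs, against 37.4% of all genes. Their sums were 382.5 CPM in the irradiated BuOE library, 1153 CPM in the irradiated PBS library, 521.2 CPM in the BuOE library and 1295 CPM in the PBS library. Skeletal muscle markers were low throughout, with sums of 15.4, 26.2, 7.85 and 18.9 CPM in the same order, and the myogenic gene Myod1 had 0.329, 5.22, 0.396 and 4.19 CPM. Of the 4 skeletal muscle markers compared, 3 were at least 2-fold lower in both BuOE pairs, against 2.20% of all genes. Acta1, the most expressed of the list, went the other way, with 13.2, 9.74, 6.13 and 5.52 CPM in the same order. Pax7 and Myog had no read in either BuOE library, Myf5 none in the BuOE library and Ckm none in the PBS library. Smooth muscle markers summed to 885.4, 1462, 696.4 and 1281 CPM, and were divided. In both BuOE pairs 2 of 6, Acta2 and Actg2, were at least 2-fold lower, against 2.20% of all genes. Myh11, Des and Cnn1 were at least 2-fold higher in both, against 1.57% of all genes. Of the 7 fibroblast markers, 4 had a ratio of BuOE to PBS below 0 in both pairs, against 37.4% of all genes. After radiation 3 of the 7 were at least 2-fold lower, against 5.92% of all genes, with Col1a1 lowest at -1.5, and none was higher. Without radiation none was at least 2-fold lower and 1, Thy1 at 1.41, was higher, against 4.23% and 8.72% of all genes. Dcn was above 0 in both, with 1324, 993.7, 881.7 and 511.1 CPM in the irradiated BuOE, irradiated PBS, BuOE and PBS libraries. The part of the proliferation, muscle, fibroblast and epithelial markers in the members' result was not tested.

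**Figure D5:**
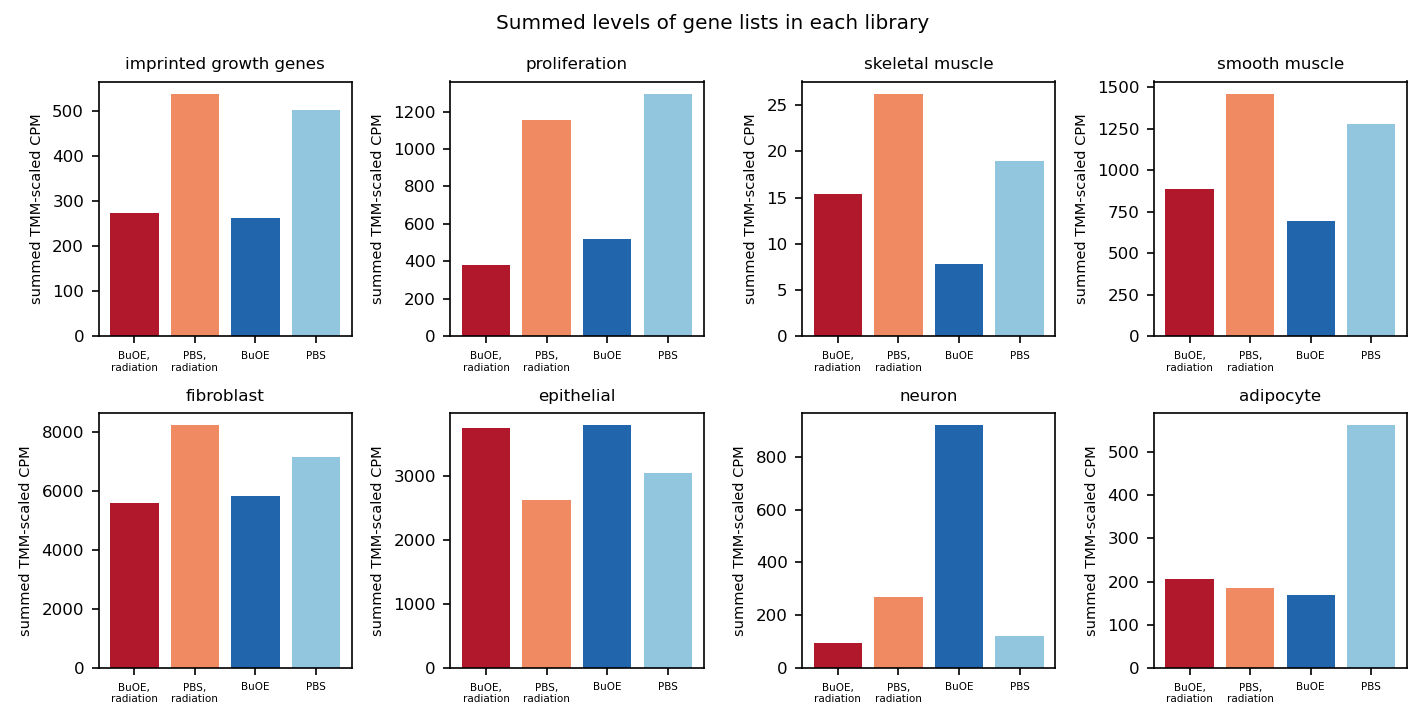
Summed level of gene lists in each library (vertical axis, TMM-scaled CPM from 0; bars, 1 library each). The members' sums (274.7, 538.9, 262.4 and 503.1 CPM from left to right), proliferation, skeletal muscle, smooth muscle and fibroblast sums are lower with BuOE in both pairs, and epithelial sums are higher. Single genes of the skeletal muscle, smooth muscle and fibroblast lists were divided in direction.

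Markers of further cell types mostly overlapped between BuOE and PBS libraries. Summed CPM in the irradiated BuOE, irradiated PBS, BuOE and PBS libraries were 137.4, 165.5, 237.4 and 81.7 for Schwann cells and 584.5, 625.8, 513.5 and 387.1 for endothelium. In the same order they were 432.1, 726.9, 674.0 and 664.1 for pericytes and 456.7, 296.4, 335.7 and 329.6 for macrophages. Prostate secretory genes summed to 196.9, 554.4, 539.9 and 782.4 CPM, of which Sbp alone gave 12.8, 438.6, 428.2 and 756.9 CPM. Sums of the Schwann cell, endothelial and pericyte lists overlapped between BuOE and PBS libraries, as did those of neurons and adipocytes above. Macrophage sums were higher and prostate secretory sums lower in both BuOE libraries than in both PBS libraries. However, 3 of the 5 secretory genes, Pbsn, Msmb and Tgm4, were at least 2-fold higher in both BuOE pairs, against 1.57% of all genes. The part of these cells in the members' result was not tested.

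The genes nearest to H19, Meg3 and Peg3 in pattern were sought by the distance between centred log2 levels over the 4 libraries, among 9665 named genes averaging 10 CPM or more. Nearest to Meg3 were Bmper (distance 0.0245), Cdc25b (0.0351) and Bard1 (0.0397). Nearest to H19 were Actg2 (0.356), Cxcl5 (0.454) and Myl9 (0.533), and nearest to Peg3 were Sytl2 (0.109), Brca2 (0.269) and Enpp3 (0.310). Bmper, for example, had 33.2, 73.9, 40.3 and 85.0 CPM in the irradiated BuOE, irradiated PBS, BuOE and PBS libraries. With 4 libraries such a likeness is a description of these libraries alone.

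Some members share exons with other genes in the GENCODE M21 annotation, and their counts are uncertain to that extent. Cdkn1c shares 625 bases, Meg3 1228 bases, Mest 912 bases, H19 141 bases and Plagl1 38 bases with genes on the opposite strand. Mirg, Rian, Meg3 and H19 hold small RNA genes on their own strand, over 367, 623, 271 and 84 bases. Grb10, Dlk1 and Peg3 share none.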

How the data were processed

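The authors deposited 1 table of raw counts per Ensembl gene, with a column for each library, and all 4 columns were used. Per the submitters' processing notes, featureCounts and the build GRCm39 were used, and Trim Galore, FastQC, Salmon and edgeR appear there with no role given; strand and multi-mapping settings are not given in the sources used here. Symbols, biotypes, exon lengths and overlaps came from GENCODE M21 (GRCm38), where 4675 of 56748 IDs had no symbol, and promoter windows from RefSeq, so no coordinate of the counted genes is given in the build of the counts.

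TMM factors from edgeR 4.0.16 (R 4.3.3) scaled the counts, genes averaging 1 CPM or more were kept, and log2 ratios used a prior count of 2. With 1 library per group no pair of libraries has a test, and the additive model is the one test made. Each 95% interval treats the reads of a gene in a pair of libraries as binomial draws (Clopper-Pearson) at the scaled totals, and covers counting error only. Groups came from the treatment labels. The additive model used edgeR and DESeq2 1.42.0, with an adjusted p of 0.05 as threshold. The steps were tested on simulated counts. Tables were computed in Python 3.11.15 (pandas 2.3.3, scipy 1.17.1) and plotted with matplotlib 3.10.9.

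The members, lists, motifs and promoters shown were chosen with earlier results of these data known. Named are all members, other imprinted genes averaging 10 CPM or more or a 2-fold ratio in any comparison, the most expressed and extreme genes of each other list, and the 3 genes nearest in pattern to H19, Meg3 and Peg3, and not every gene so named is described. Alternatives were DESeq2 size factors, library size alone, upper-quartile factors, a prior count of 0.5, no filter, a mean of at least 10 CPM, and 1.5-fold.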

Additional observations from a re-analysis of the deposited data

Results flagged for a closer look

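The 10 members and 27 other imprinted genes were searched for opposite radiation ratios in the arms. For 7 of these genes the ratio of irradiated to unirradiated libraries had a 95% counting interval above 0 in one arm, BuOE or PBS, and below 0 in the other. The same held for 15.7% of all genes, so the pattern is not particular to imprinted genes. Genes whose ratios differ in sign but whose interval reaches 0 in an arm, such as Mirg and Mest, are not among them. Each arm has 1 library per condition, and the difference between arms was not tested. The log2 ratio with BuOE minus that with PBS was 1.70 for Dlk1 and -1.0 for Peg3 among the members. It was 0.29 for Igf2r, -1.84 for Snrpn, -1.71 for Nnat, -2.79 for Nap1l5 and -0.63 for Inpp5f among the other imprinted genes.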

How the results depend on the processing

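No paired analysis was possible because each condition has 1 library, so no replicate numbers pair samples, though the additive model compares BuOE with PBS within each radiation state. Leaving out a replicate was not possible either. Of 160 ratios of single members under another scaling or prior count, 154 lay within the counting interval of the reported value, 6 lay outside it and 0 reversed a called direction. In both BuOE pairs 9 of 10 members stayed below 0 under each scaling and prior count tried.

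Counts of members moved as follows, and the cause was not tested where no construction explains it. At a mean of at least 10 CPM Cdkn1c is not compared, which left 0 members higher in either BuOE pair. At 1.5-fold, 9 members were lower with BuOE after radiation (14.6% of all genes) and 8 in both BuOE pairs (5.46%). With library size alone Meg3 missed 2-fold without radiation, which left 5 members lower in that pair and 3 in both pairs, and at 10 CPM Mirg is not compared, which also left 5 and 3. The edgeR additive model called 0 members, and DESeq2 called 6. After radiation in the BuOE arm, 2 members were at least 2-fold higher with upper-quartile factors (3.25% of all genes) and 3 passed 1.5-fold (8.30%). In the PBS arm, 0 were higher with DESeq2 size factors or upper-quartile factors, and at 1.5-fold 2 were higher (10.9% of all genes) and 1 was lower (3.56%). Maternally expressed members below 0 after radiation in the BuOE arm numbered 1 with upper-quartile factors, and paternally expressed members below 0 in the PBS arm numbered 2 with DESeq2 or upper-quartile factors. The arms differed at least 2-fold for 2 members, with Peg3 joining Dlk1, under library size alone and with a prior count of 0.5.

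Library size alone moved the median log2 ratio of all genes to -0.145 between the BuOE libraries after radiation and to -0.102 for BuOE after radiation. The lowest count of a member, 58 reads, limits the precision for Cdkn1c.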
